A study of Mus musculus with 22 samples.

Results

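A set of 8 genes of cholesterol and lipoprotein transport was examined in the retinal pigment epithelium (RPE) and retina of WT and AdipoR1-/- (KO) mice. They are Scarb1, Soat1, Abca1, Abcg1, Apoe, Npc1, Npc2 and Lrp1, 8 of the 53801 gene identifiers in the bulk tables, and all 8 are also among the 19324 genes of the single-cell table. They were selected on the KO and WT RPE libraries at P30, in which Soat1 was higher and Scarb1 was lower in KO mice, so the RPE genotype values below are a description with no test. The rule itself did not use the retina libraries or the single cells, and these are tested. The comparison of the tissues is tested too, but its RPE libraries are among those the rule used. All 8 genes passed the filter on low counts in each bulk comparison.

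KO mice carried the B6.129P2-Adipor1tm1Dgen allele, and were compared with WT mice. The labels give C57BL/6J as the strain of every sample, while the study's methods also name an albino background for the line. The allele is carried in all tissues, so a difference in the RPE or the retina cannot be assigned to loss of ADIPOR1 in that tissue. Mice of both sexes were kept under a cycle of 12 hours of light and 12 hours of dark. Bulk RNA-Seq was made at P30, with n = 4 mice per genotype for RPE and for retina. RPE cells were shaken off eyecups, without choroid and sclera. For single cells, 4 retinae from 2 mice were pooled into each library, and each genotype gave a single library per age (P19, P25 and P30).

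Photoreceptors shed their outer segment tips each day, and the RPE engulfs them, so it takes up cholesterol both from these membranes and from lipoproteins of the choroidal blood. Receptors such as SR-BI and LRP1 mediate uptake, the lysosomal proteins NPC2 and NPC1 pass free cholesterol out of the lysosome, and SOAT1 esterifies it for storage in lipid droplets. ABCA1 and ABCG1 move cholesterol out of the cell to apolipoproteins, of which APOE is the main one made within the eye. Sterol-sensing transcription factors of the SREBP family raise synthesis and lipoprotein uptake when cell sterol is low, and liver X receptors raise efflux genes when oxysterols are high.

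Total counts were between 20133143 and 38409496 per RPE library and between 22734843 and 35118164 per retina library. Levels are given as CPM, the read counts scaled to library size with TMM within a tissue. Adipor1, the targeted gene, was 2.81-fold lower in KO RPE (409 ± 48.6 against 145 ± 5.79 CPM, SD, n = 4) and 4.33-fold lower in KO retina. The 9 RPE markers summed to between 32110 and 49900 CPM in WT RPE and between 41810 and 44030 CPM in KO RPE, against at most 188 CPM in any retina library. WT RPE replicates 2 and 3 held far more rod RNA than the others. The 7 rod markers summed to 14190 and 14180 CPM there, against 876 and 1326 CPM in WT replicates 1 and 4. In KO RPE they summed to 514, 3029, 4224 and 806 CPM in replicates 1 to 4. Values without WT RPE replicates 2 and 3 are given where the call, the direction or the size of a result moved most. Those fits keep KO replicates 2 and 3, so rod RNA is not equal between the genotypes in them either. The 10 microglia markers summed to between 435 and 692 CPM in WT RPE and between 801 and 890.4 CPM in KO RPE, and 8 of them rose past the threshold, while in the retina the sum went from between 69.3 and 74.1 CPM to between 236 and 274 CPM and all 10 rose. No marker of these lists was at 0 in every library. In such bulk samples, fewer cells of a type and less RNA per cell cannot be told apart.

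Among the receptors, Scarb1 encodes SR-BI, which takes up lipids from HDL, and lies at chr5:125277087-125341094 of GRCm38. In WT RPE it had 197, 188, 189 and 176 CPM in replicates 1 to 4, and in KO RPE 125, 128, 137 and 129 CPM. The highest KO value was under the lowest WT value, and the KO mean was 1.45-fold lower (log2 fold change -0.54 ± 0.056, SE). With another normalization, filter or tool, or with a library left out, this value stayed between -0.57 and -0.51.

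Lrp1, a large endocytic receptor that binds APOE-rich remnants, had 2022, 1560.5, 1795 and 1776 CPM in the WT RPE libraries and 1715, 1478, 1728 and 1578 CPM in the KO RPE libraries. The groups overlapped, and the log2 fold change was -0.14 ± 0.10 (SE), and -0.21 without WT replicates 2 and 3. Both receptors were therefore lower on average in KO RPE, but only for Scarb1 were the 2 genotypes apart.

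Soat1 (chr1:156424525-156474331) encodes the acyltransferase that turns free cholesterol into cholesteryl ester. It had 159.6, 127, 172 and 202 CPM in WT RPE and 316, 388, 368 and 387 CPM in KO RPE. The lowest KO library was well above the highest WT library, and the KO mean was 2.21-fold higher (log2 fold change 1.15 ± 0.14, SE). The value was between 1.05 and 1.26 under the same changes and 1.03 without WT replicates 2 and 3. The microglia marker sum given above was also higher in each KO RPE library, and Soat1 was high in microglia-like single cells (96.6 CPM), and the part of these cells in the Soat1 difference was not tested.

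The efflux transporters differed less. Abca1, which loads cholesterol and phospholipid onto lipid-poor apolipoproteins, had 155, 131, 135 and 128 CPM in WT RPE and 141, 129, 128 and 128 CPM in KO RPE. These groups overlapped closely, with a log2 fold change of -0.06. Abcg1, which exports cholesterol to HDL particles, had 15.8, 27.1, 24.6 and 8.99 CPM in WT RPE and 9.39, 12.1, 12.7 and 18.0 CPM in KO RPE.

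The 2 WT RPE libraries with the highest Abcg1 were those with the most rod RNA. The log2 fold change of Abcg1 was -0.56 ± 0.35 (SE) with all libraries and 0.07 without these 2, so that its direction in the RPE rested on them.

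Apoe, the apolipoprotein of particles secreted by the RPE and by glia, had 6525, 4632, 5732 and 7184 CPM in WT RPE and 5788, 6152, 6155 and 5686 CPM in KO RPE. All KO values lay within the WT range, and the log2 fold change was -0.02 ± 0.15 (SE), and -0.19 without WT replicates 2 and 3.

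Of the lysosomal pair, the membrane protein gene Npc1 had 43.6, 57.1, 50.6 and 42.7 CPM in WT RPE and 43.0, 49.5, 52.7 and 46.6 CPM in KO RPE. All KO values again lay within the WT range (log2 fold change -0.02, and 0.17 without WT replicates 2 and 3). Npc2, which encodes the soluble partner that hands cholesterol to NPC1, had 610.1, 470.2, 554 and 717 CPM in WT RPE and 483, 475, 454 and 479.9 CPM in KO RPE. The groups overlapped through WT replicate 2 alone, and the log2 fold change was -0.31 ± 0.12 (SE). Without WT replicates 2 and 3 it was -0.47.

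Among all 18989 genes tested in the RPE, 6.73% passed an adjusted p of 0.05 in edgeR's quasi-likelihood test (Benjamini-Hochberg adjusted), 2.84% higher and 3.89% lower in KO mice, and in 15.2% the KO and WT values did not overlap. Of the 8 selected genes, 2 had values that did not overlap, and since the selection used this contrast nothing is read from that count. The plot of levels by library shows these values together with those of the retina.

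**Figure D1:**
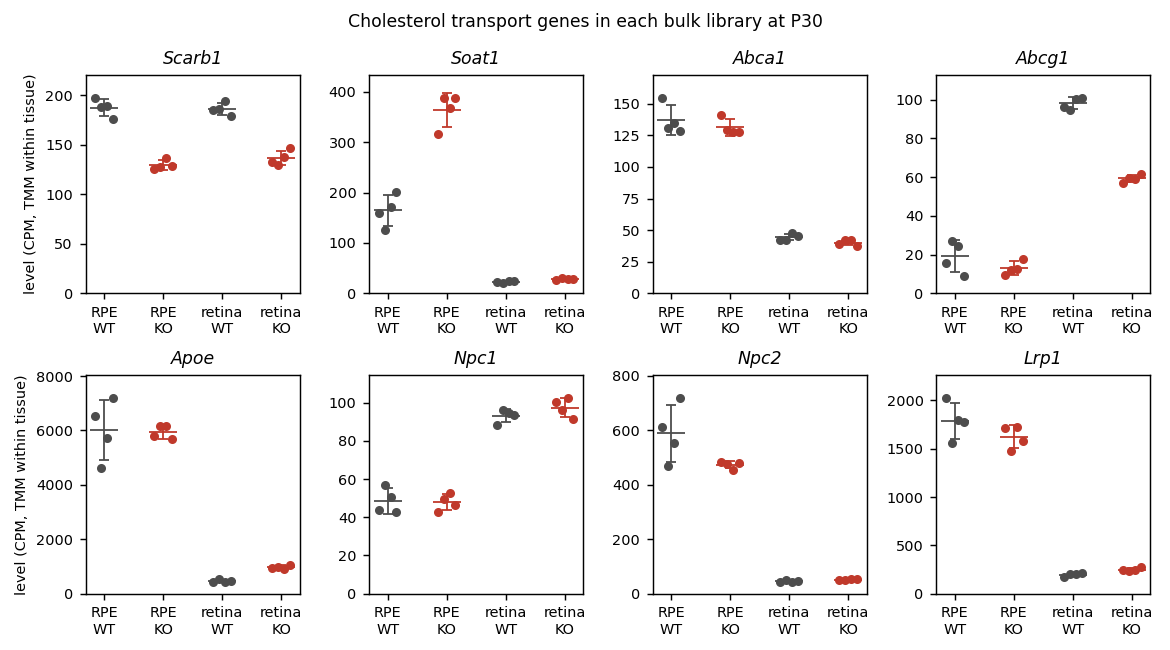
Level in CPM (vertical axis, from 0, scaled within a tissue) of each of the 8 genes in each bulk library at P30, by tissue and genotype, with the mean and SD of the 4 libraries of a group. Soat1 lay between 316 and 388 CPM in KO RPE against 127 to 202 CPM in WT RPE, and Apoe lay between 902 and 1064 CPM in KO retina against 415 to 522 CPM in WT retina.

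To compare the genes with each other, levels were divided by exon length. In WT RPE, Apoe was at 2815 ± 514 CPM per kb (SD, n = 4), far above the rest. Npc2 (108 ± 19.0) and Lrp1 (100.9 ± 10.7 CPM per kb) followed and did not differ beyond their spread. Below them were Scarb1 at 22.1 ± 1.04, Soat1 at 16.8 ± 3.16 and Abca1 at 13.2 ± 1.16 CPM per kb, where the libraries of Soat1 and Abca1 overlapped. Npc1 at 4.29 ± 0.596 and Abcg1 at 2.62 ± 1.14 CPM per kb were the lowest. In KO RPE, Soat1 was at 37.2 ± 3.45 and Scarb1 at 15.2 ± 0.578 CPM per kb, so these 2 genes stood in the reverse order. They were chosen for a rise and a fall in these libraries, so nothing is read from the change of order.

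To see in which tissue these genes are higher without the KO, WT RPE libraries were compared with WT retina libraries. The same WT RPE libraries served to choose Soat1 and Scarb1, so the tissue values of these genes are not independent of that choice. All 8 differed by edgeR's quasi-likelihood test, 6 higher in RPE and 2 lower, but 81.9% of all genes tested did so, 41.4% higher and 40.4% lower in RPE. The largest differences were those of Apoe and Npc2: Apoe was 16.3-fold higher in RPE (log2 4.02, SE 0.20, adjusted p = 9.96e-07) and Npc2 16.1-fold higher (log2 4.01, SE 0.14, adjusted p = 2.09e-07). Lrp1 was 11.3-fold higher (adjusted p = 2.79e-07 by edgeR), Soat1 8.84-fold higher (log2 3.14, SE 0.15, adjusted p = 6.62e-07) and Abca1 3.83-fold higher (adjusted p = 3.85e-07). The WT RPE libraries also held more RNA of some other cells than the WT retina libraries. The 10 microglia markers summed to between 435 and 692 CPM against 69.3 to 74.1 CPM. The 6 choroid fibroblast markers summed to between 524 and 1924 CPM against 21.0 to 26.9 CPM. The part of these cells in the tissue differences was not tested.

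Abcg1 was 4.09-fold lower in RPE than in retina (log2 -2.03, adjusted p = 0.000476 by edgeR), and 2.69 lower on the log2 scale without the 2 WT RPE libraries richest in rod RNA. Npc1 was 1.54-fold lower in RPE (adjusted p = 0.000804 by edgeR). Thus the 2 efflux transporters stood on opposite sides, Abca1 higher in RPE libraries and Abcg1 in retina libraries, and so did the 2 lysosomal genes. For Scarb1 the difference was small and rested on the scaling: it was 0.33 higher in RPE on the log2 scale with TMM (adjusted p = 0.00186 by edgeR) and 0.07 with library totals (adjusted p = 0.411). Library totals moved the median of all genes in this comparison from 0.003 to -0.26, and the split from 8292 higher and 8091 lower to 7033 higher and 9760 lower.

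In KO mice the same comparison of RPE with retina gave log2 differences of 4.01 for Soat1, 2.94 for Apoe, 3.51 for Npc2, 3.03 for Lrp1, 2.03 for Abca1, 0.25 for Scarb1, -0.70 for Npc1 and -1.87 for Abcg1. The order of the tissues was thus the same in both genotypes for each gene. Soat1 was the farthest apart in KO mice, but it was chosen for its high level in KO RPE, so nothing is read from that rank.

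In the retina, KO and WT mice were compared in edgeR's quasi-likelihood test, adjusted by Benjamini-Hochberg over 19381 genes. Of the 8 genes, 4 rose in KO retina (Apoe, Lrp1, Soat1 and Npc2), 2 fell (Abcg1 and Scarb1) and 2 did not pass (Abca1 and Npc1). Over all genes, 30.9% passed, 16.2% higher and 14.7% lower, and the KO and WT values of 31.4% did not overlap. With library totals in place of TMM, the split of all genes moved from 3144 higher and 2846 lower to 5855 higher and 1485 lower, while the median over all genes moved from 0.004 to 0.11 on the log2 scale. All 6 genes that passed kept their direction and passed with that scaling too, and Npc1 then also passed (log2 fold change 0.18, adjusted p = 0.00458).

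Apoe showed the largest rise, with 415, 522, 438 and 462 CPM in WT retina and 945, 979, 902 and 1064 CPM in KO retina. The KO libraries lay far above the WT libraries, at a 2.12-fold higher level (log2 fold change 1.08, SE 0.075, adjusted p = 1.5e-07 by edgeR). Its WT mean of 459 CPM was nevertheless well below the 6018 CPM of WT RPE.

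Abcg1 showed the largest fall. It had 96.4, 94.8, 100.5 and 100.9 CPM in WT retina and 57.2, 59.4, 59.0 and 61.6 CPM in KO retina, 1.65-fold lower (log2 fold change -0.73, SE 0.040, adjusted p = 2.02e-08 by edgeR). The lowest WT library was well above the highest KO library. Rod RNA fell in the same libraries: the 7 rod markers summed to between 53060 and 59150 CPM in WT retina and between 25010 and 29450 CPM in KO retina, and all 7 passed the threshold. The part of rod RNA in the fall of Abcg1 was not tested.

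Scarb1 had 185, 186, 194 and 179 CPM in WT retina and 133, 129.9, 138 and 146 CPM in KO retina. The genotypes did not overlap, as in the RPE. The log2 fold change was -0.45 (SE 0.043, adjusted p = 3.63e-06 by edgeR), beside -0.54 in the RPE. Rod RNA fell in these retina libraries, as given above, and Scarb1 was high in rod-like single cells (133 CPM). The part of rod RNA in the fall of Scarb1 was not tested.

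Soat1 also had the same direction as in the RPE but a smaller difference. It had 23.4, 20.7, 24.4 and 24.1 CPM in WT retina and 27.1, 29.9, 28.0 and 28.6 CPM in KO retina. The groups did not overlap, and the log2 fold change was 0.29 (SE 0.065, adjusted p = 0.00352 by edgeR), beside 1.15 in the RPE. The 2 differences stand side by side without a test, since the RPE value was used to choose the gene.

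Lrp1 had 175, 199, 199.8 and 213 CPM in WT retina and 242, 232, 247 and 274 CPM in KO retina (log2 fold change 0.34, SE 0.062, adjusted p = 0.000953 by edgeR). Npc2 had 44.3, 48.5, 43.3 and 45.0 CPM in WT retina and 51.7, 51.2, 52.3 and 52.6 CPM in KO retina (log2 fold change 0.20, SE 0.048, adjusted p = 0.00656 by edgeR). In both genes the genotypes did not overlap in the retina, whereas in the RPE they overlapped with log2 fold changes below 0. In the same KO retina libraries the 10 microglia markers rose, the 4 astrocyte markers summed to between 219.8 and 284.5 CPM against 40.4 to 52 CPM in WT retina (2 of 4 rose), and the 7 endothelium markers to between 444 and 470 CPM against 273 to 326 CPM (2 of 7 rose). Their part in the rises of Apoe, Lrp1, Soat1 and Npc2 was not tested.

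Abca1 had 42.6, 42.6, 47.6 and 45.3 CPM in WT retina and 39.1, 41.9, 42.0 and 37.8 CPM in KO retina. The KO values were all the lower, but the difference did not pass (log2 fold change -0.15, adjusted p = 0.0698 by edgeR). Npc1 had 88.3, 96.2, 94.4 and 93.7 CPM in WT retina and 100.3, 95.9, 102 and 91.5 CPM in KO retina, and these groups overlapped (log2 fold change 0.07, adjusted p = 0.281 by edgeR). Npc1 overlaps the gene Rmc1 on the other strand, and whether counting used the strand is not stated in the sources used here. Its reads are uncertain for that reason, as are those of Lrp1, Soat1 and Scarb1 where short annotated transcripts lie within them.

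**Figure D2:**
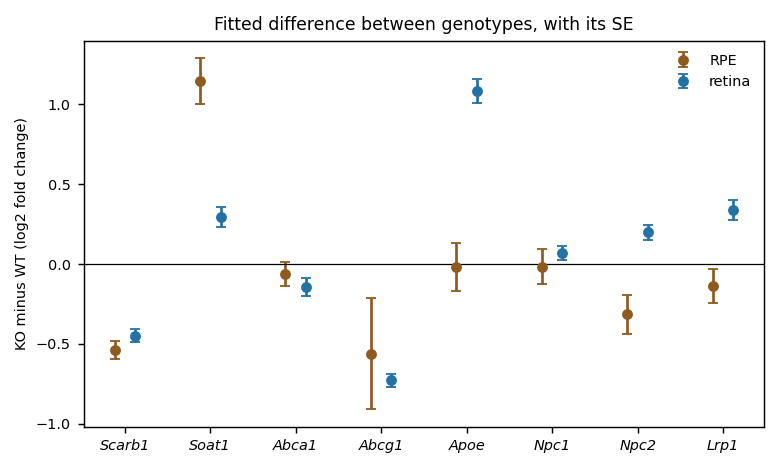
Fitted log2 fold change between KO and WT mice (vertical axis) with its SE for the 8 genes, in RPE and in retina, each from n = 4 libraries per genotype. Scarb1 was below 0 in both tissues (-0.54 and -0.45), Soat1 was above 0 in both (1.15 and 0.29), and Apoe was near 0 in the RPE (-0.02) and at 1.08 in the retina.

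To show the sequence at the start of the genes whose RNA rose in KO retina, together with that of Abca1, which did not pass, RefSeq promoters of GRCm38.p6 were read from 250 bases before to 50 bases after the start, for the 5 of 8 genes matched. Apoe has more than 1 start, and the one farthest upstream is shown. Capitals mark matches, on either strand, to the letters GGGCGG (the GC box of Sp1), CACGTG (an E-box), TAATCC (a core bound by CRX and OTX2), TTCNNNGAA (a STAT site) or AGGTCA (a half-site of nuclear receptors). No 2 matches overlapped.
Soat1 (chr1:156474279-156474578, minus strand): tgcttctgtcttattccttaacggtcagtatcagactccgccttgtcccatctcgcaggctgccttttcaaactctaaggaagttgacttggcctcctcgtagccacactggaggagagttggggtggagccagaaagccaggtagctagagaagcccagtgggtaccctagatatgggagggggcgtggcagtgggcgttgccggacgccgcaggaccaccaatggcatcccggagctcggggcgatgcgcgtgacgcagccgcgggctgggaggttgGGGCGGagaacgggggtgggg
Apoe (chr7:19699139-19699438, minus strand): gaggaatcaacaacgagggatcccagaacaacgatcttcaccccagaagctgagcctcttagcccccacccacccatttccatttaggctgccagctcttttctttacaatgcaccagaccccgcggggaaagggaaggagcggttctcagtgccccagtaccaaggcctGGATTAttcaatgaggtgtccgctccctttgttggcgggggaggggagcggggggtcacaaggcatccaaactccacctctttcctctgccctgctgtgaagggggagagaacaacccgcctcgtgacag
Npc2 (chr12:84773063-84773362, minus strand): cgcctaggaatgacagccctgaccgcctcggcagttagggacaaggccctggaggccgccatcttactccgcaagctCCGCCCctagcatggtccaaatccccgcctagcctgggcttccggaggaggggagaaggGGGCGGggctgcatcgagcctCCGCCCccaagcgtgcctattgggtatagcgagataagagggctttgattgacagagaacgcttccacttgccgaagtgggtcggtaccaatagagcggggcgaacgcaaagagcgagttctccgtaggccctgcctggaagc
Lrp1 (chr10:127621099-127621398, minus strand): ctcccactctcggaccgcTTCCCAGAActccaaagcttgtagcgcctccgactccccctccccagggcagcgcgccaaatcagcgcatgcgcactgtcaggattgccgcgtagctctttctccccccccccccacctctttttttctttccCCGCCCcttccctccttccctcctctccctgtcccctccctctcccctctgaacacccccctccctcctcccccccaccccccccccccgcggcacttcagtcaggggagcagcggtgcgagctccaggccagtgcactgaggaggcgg
Abca1 (chr4:53159846-53160145, minus strand): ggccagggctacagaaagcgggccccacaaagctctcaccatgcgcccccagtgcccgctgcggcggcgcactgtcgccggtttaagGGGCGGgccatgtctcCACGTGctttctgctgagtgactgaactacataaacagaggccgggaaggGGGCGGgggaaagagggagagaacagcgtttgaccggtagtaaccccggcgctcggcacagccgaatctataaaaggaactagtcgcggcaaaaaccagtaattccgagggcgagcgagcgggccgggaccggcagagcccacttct
The letters GGGCGG occurred once in Soat1, 3 times in Npc2, once in Lrp1 and 2 times in Abca1, and not in the Apoe window. They occurred in 35.7% of 32851 promoters of the same length. TAATCC was found only in Apoe among the 5 shown (7.06% of all promoters), CACGTG only in Abca1 (7.15%) and TTCNNNGAA only in Lrp1 (8.3%). AGGTCA, present in 16.3% of all promoters, was in none of the 5 windows. A match is a run of letters and not a bound site.

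The rest of the pathway was examined through 86 further genes of sterol and lipoprotein transport. In KO RPE, 3 of 77 tested rose and 12 fell by edgeR's quasi-likelihood test, where 2.84% of all genes rose and 3.89% fell, with a median log2 fold change of -0.06 beside -0.02 over all genes. Leaving out single libraries gave between 6 and 16 genes past the threshold. The count was 7, 6, 8 and 7 when KO replicates 1, 2, 3 and 4 were left out in turn, and 9 with WT replicate 3 left out.

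The 3 genes that rose in KO RPE were Plin2, which coats lipid droplets, Clu, a secreted apolipoprotein and chaperone, and Sorl1, a sorting receptor. Plin2 had 111, 86.5, 95.3 and 121 CPM in WT RPE and 227, 189, 195 and 223 CPM in KO RPE, with no overlap (log2 fold change 1.01, SE 0.12, adjusted p = 0.00247 by edgeR). Soat1 did not overlap either, but it was chosen on these libraries, so nothing is read from the pair. The microglia marker sum was also higher in each KO RPE library, and the part of these cells in the Plin2 rise was not tested. Clu rose by a log2 fold change of 0.81 (adjusted p = 0.0209 by edgeR; 0.83 and 0.0541 in the fit with a replicate block) and Sorl1 by 0.52 (adjusted p = 0.0237). Without WT replicates 2 and 3 the log2 fold changes were 0.87 for Plin2 (adjusted p = 0.00528), 0.67 for Clu (adjusted p = 0.00238) and 0.40 for Sorl1 (adjusted p = 0.0531), so that the last was no longer past the threshold. Clu did not pass without any single KO replicate (adjusted p between 0.0512 and 0.0736) or without WT replicate 3 (0.06). Sorl1 did not pass without any single KO replicate (between 0.0512 and 0.0839) or without WT replicates 3 (0.0681) or 4 (0.0591).

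Of the apolipoprotein and lipoprotein remodelling list, 7 of 17 tested genes fell in KO RPE and 1 rose. The genes with the largest falls were plasma apolipoproteins that liver makes: Apob (log2 fold change -3.67, adjusted p = 0.0432 by edgeR), Apoa1 (-3.45, adjusted p = 0.0149), Apoh (-3.08, adjusted p = 0.00589), Apoa2 (-2.19, adjusted p = 0.0212) and Apom (-2.08, adjusted p = 0.00917). Their levels were low. Apoa1, the main protein of HDL, had 11.4, 15.6, 19.6 and 20.2 CPM in WT RPE and 0.722, 1.64, 3.36 and 0.36 CPM in KO RPE, while Apob was at most 3.87 CPM in any RPE library. All 8 markers of liver-type plasma proteins fell in the same libraries, from sums between 151 and 381 CPM in WT RPE to sums between 6.21 and 45.1 CPM in KO RPE, and their part in these falls was not tested. Without WT replicates 2 and 3, the adjusted p was 0.0844 for Apob and 0.0754 for Apoa2, and leaving out any single KO library gave Apob an adjusted p between 0.0617 and 0.131. Apob also missed the threshold without WT replicate 2 (0.0521), 3 (0.0952) or 4 (0.086), Apoa1 without KO replicate 2 (0.0582), and Apoa2 without KO replicate 1 (0.0645), 2 (0.0698) or 4 (0.071) or WT replicate 3 (0.0562) or 4 (0.0532).

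Among the regulators, 4 of 12 fell in KO RPE and 0 rose. Insig1, which holds the SREBP escort protein in the endoplasmic reticulum and is itself an SREBP target, had 169, 133.5, 126 and 105 CPM in WT RPE and 56.4, 56.9, 48.4 and 58.0 CPM in KO RPE. The groups were far apart (log2 fold change -1.28, SE 0.14, adjusted p = 0.00199 by edgeR). The SREBP genes themselves fell too, Srebf1 by 0.76 (adjusted p = 0.00747) and Srebf2 by 0.46 on the log2 scale (adjusted p = 0.00243). Of the other lists, 0 of 4 efflux transporters passed in the RPE, 1 of 15 receptors rose (Sorl1), 1 of 9 genes of esterification and storage rose (Plin2), and 1 of 20 genes of lysosomal and intracellular sterol transfer fell (Scp2, -0.44).

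In KO retina, 24 of 73 tested pathway genes rose and 13 fell, where 16.2% of all genes rose and 14.7% fell, with a median log2 fold change of 0.06 beside 0.004 over all genes. The largest rises were in Ch25h, which makes 25-hydroxycholesterol (log2 fold change 2.39, adjusted p = 0.00253 by edgeR, at most 0.756 CPM in any retina library), Apoc1 (1.85, adjusted p = 0.000196), Clu (1.66, adjusted p = 6.43e-10), Tspo, a mitochondrial cholesterol-binding protein (1.29, adjusted p = 2.43e-05), Lcat, which esterifies cholesterol on HDL (1.05, adjusted p = 0.000106), and Plin3 (0.89, adjusted p = 2.91e-05). The astrocyte, microglia and endothelium marker sums given above were higher in the same libraries, Lcat was among the 10 leading genes of the astrocyte-like cluster, and the part of these cells in the rises was not tested. The largest falls were in the fatty acid sensor Ppara (-0.97, adjusted p = 1.39e-05), Stab2 (-0.70), Osbpl8 (-0.56), Mylip (-0.49), Gramd1b (-0.49) and Abcg4, a close relative of Abcg1 (-0.44, adjusted p = 7.33e-06, and 0.661 with both tissues in 1 fit). By list, 6 of 14 receptors rose and 4 fell, 4 of 13 apolipoprotein genes rose and 1 fell, and 8 of 21 genes of lysosomal and intracellular transfer rose and 4 fell. In addition, 3 of 10 genes of esterification and storage rose, 3 of 11 regulators rose and 2 fell, and 2 of 4 efflux transporters fell.

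The difference between the tissues was tested directly for these pathway genes, by an interaction term fitted to the 16 bulk libraries. It passed for 21 of 80, of which the KO difference was higher in the RPE for 4 and lower for 17, where 8.84% of all genes passed. With library totals, the split over all genes moved from 656 higher and 1207 lower to 358 higher and 2155 lower, and the median from -0.05 to -0.18. Without WT RPE replicates 2 and 3, 3901 of 21604 genes passed, 1975 higher and 1926 lower, and 30 of the pathway genes did. The smallest adjusted p belonged to Insig1, which fell in KO RPE and rose in KO retina (93.1, 87.3, 81.6 and 85.4 CPM in WT and 110.5, 116, 116 and 110.1 CPM in KO retina; log2 fold change 0.38, adjusted p = 2e-05 by edgeR). The difference of its effects was -1.64 (SE 0.15, adjusted p = 1.15e-05).

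Srebf2 and Srebf1 had the same pattern, lower in KO RPE and higher in KO retina (log2 fold changes of 0.53 and 0.47 in the retina), with differences of -0.98 (adjusted p = 1.95e-05) and -1.20 (adjusted p = 0.000121 by edgeR). Mylip encodes a ubiquitin ligase whose gene is a target of liver X receptors. Its difference had the other sign, 0.97 (adjusted p = 0.000158), from 0.46 in KO RPE (adjusted p = 0.0668) and -0.49 in KO retina. Tspo differed by -1.45 (adjusted p = 0.000447).

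The 16 genes of sterol synthesis, taken as a reference list, lay alongside: 12 fell and 0 rose in KO RPE, 8 rose and 0 fell in KO retina, and the effect was the lower in the RPE for 14 by the interaction. Over all genes the shares past the threshold were 6.73% in RPE, 30.9% in retina and 8.84% for the interaction.

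**Figure D3:**
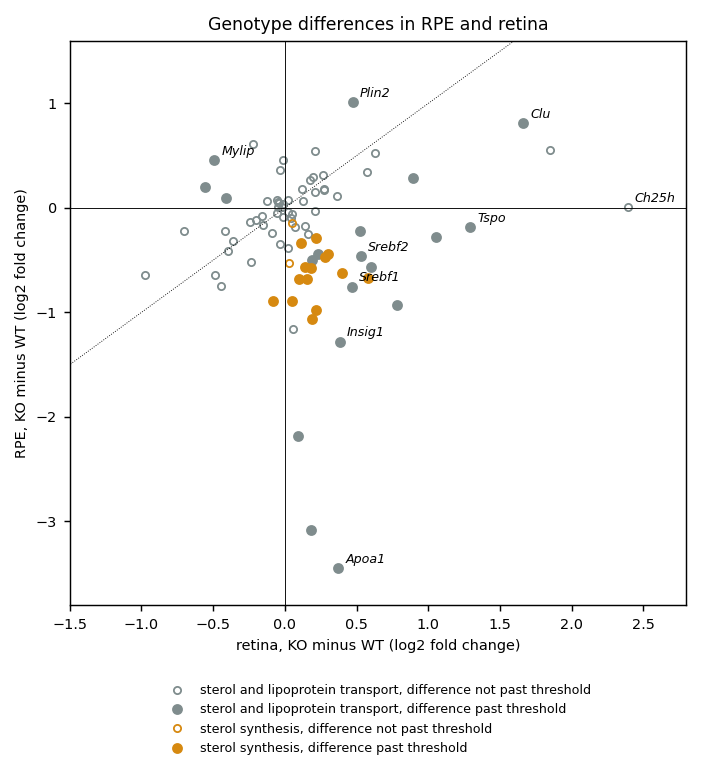
KO minus WT log2 fold change in retina (horizontal axis) and in RPE (vertical axis) for pathway genes and sterol synthesis genes tested in both tissues. Filled points passed the interaction test, and the dotted line marks equal differences. The sterol synthesis genes, Insig1, Srebf1 and Srebf2 lie below 0 in the RPE, and all but Hsd17b7 of them lie above 0 in the retina.

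The genes with the pattern most like those of Scarb1 and Soat1 were sought over the 16 bulk libraries among 21068 genes, by the root mean square difference of log2 CPM after centring each gene on its own mean. For Scarb1 they were Rnf24 (0.135), Sap30l, Sv2b, Gm11560 and Oaz1 (0.153), beside a median of 0.677 over all genes. Rnf24, the closest, had mean levels of 33.6 and 23.6 CPM in the RPE and of 36.4 and 29.2 CPM in the retina of WT and KO mice. For Soat1 they were Gm8113 (0.187), Thpo, Ctsk, Vegfc and Gm6652 (0.281), beside a median of 1.87. The mean of Ctsk, which encodes a lysosomal protease, was 22.0 CPM for WT and 36.3 CPM for KO RPE, and 2.76 and 2.91 CPM for WT and KO retina. Gm11560 and Gm6652 are processed pseudogenes, whose reads may come from their parent genes.

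To locate the 8 genes among cell types, 26764 cells of the 6 single-cell libraries were grouped into classes by marker genes. Median UMIs per cell were 3407 and 3568 in WT and KO libraries at P19, 4357 and 2523 at P25, and 1416 and 1349 at P30, and the P30 libraries were sequenced on another instrument than those of P19 and P25. The libraries shared 49 cell barcodes. Values are CPM of UMIs summed over the 6 libraries, with exact 95% Poisson intervals that cover counting error only, and microglia-like cells numbered only 133.

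Scarb1 was highest in rod-like cells, at 133 CPM (125.8 to 139.7), with endothelium-like cells at 132 CPM, whose interval overlapped. Cone-like cells followed at 97.1 CPM and Müller glia-like cells at 86.2 CPM, and ganglion-like cells were lowest at 5.9 CPM. Abcg1 was at 82.7 CPM (75.5 to 90.3) in cone-like and 52.1 CPM in rod-like cells of both genotypes together. It was at 59.7 CPM (51.0 to 69.3) in endothelium-like and 52.2 CPM in cone bipolar-like cells. In WT cells alone it was at 79.96 CPM in rod-like and 76.4 CPM in cone-like cells, whose intervals overlapped, and in KO cells at 34.97 CPM in rod-like and 90.5 CPM in cone-like cells.

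The other 6 genes were highest in microglia-like cells when the genotypes were summed, but 105 of these 133 cells were KO. In WT cells alone, Apoe was higher in Müller glia-like (24770 CPM) and astrocyte-like cells (17150 CPM) than in the 28 microglia-like cells (15200 CPM). Npc1 in WT cells was at 107.9 CPM in astrocyte-like and 92.8 CPM in microglia-like cells, and Lrp1 at 240.5 CPM in pericyte-like and 227 CPM in microglia-like cells, with overlapping intervals for both genes. The values that follow are those of both genotypes. Apoe was at 26810 CPM there and at 24300 CPM in Müller glia-like cells, against 22.3 CPM in horizontal-like cells. Npc2 was at 1341 CPM in microglia-like cells, the next class being astrocyte-like cells at 489 CPM. Lrp1 was at 283 CPM in microglia-like and 259 CPM in pericyte-like cells, whose intervals overlapped, and at 0.839 CPM in cone-like cells. Abca1 was at 144 CPM in microglia-like and 108 CPM in endothelium-like cells. Soat1 was at 96.6 CPM in microglia-like cells (73.9 to 124.1), with astrocyte-like cells next at 29.2 CPM, and Npc1 was at 88.7 CPM. The classes that lead in Apoe, Npc2, Lrp1 and Soat1 are therefore non-neuronal, whereas Scarb1 and Abcg1 were high in photoreceptor-like and also in endothelium-like cells.

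RPE cells were few. A cluster of 228 cells led by Ttr, Ptgds and Dct was left unnamed, and a finer clustering at a resolution of 2.0, examined after the data were seen, separated 83 RPE-like cells, 41 WT and 42 KO, in which Rpe65 was at 1344 CPM (WT) and 928 CPM (KO). Over these 83 cells Soat1 was at 125.4 CPM (83.99 to 180.1), above its level in each neuronal class, and Scarb1 was at 38.9 CPM (17.8 to 73.9). Lrp1 was at 345.9 CPM. Soat1 and Lrp1 thus had higher values here than in microglia-like cells (96.6 and 283 CPM), but the intervals overlapped for both genes. Soat1 had 12 UMIs in the WT cells, 97.2 CPM (50.2 to 169.8), and 17 UMIs in the KO cells, 157.7 CPM (91.9 to 252.6). Scarb1 had 4 UMIs in WT cells and 5 UMIs in KO cells. For both genes the intervals of the genotypes overlapped, so that a difference was not detectable at this depth.

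**Figure D4:**
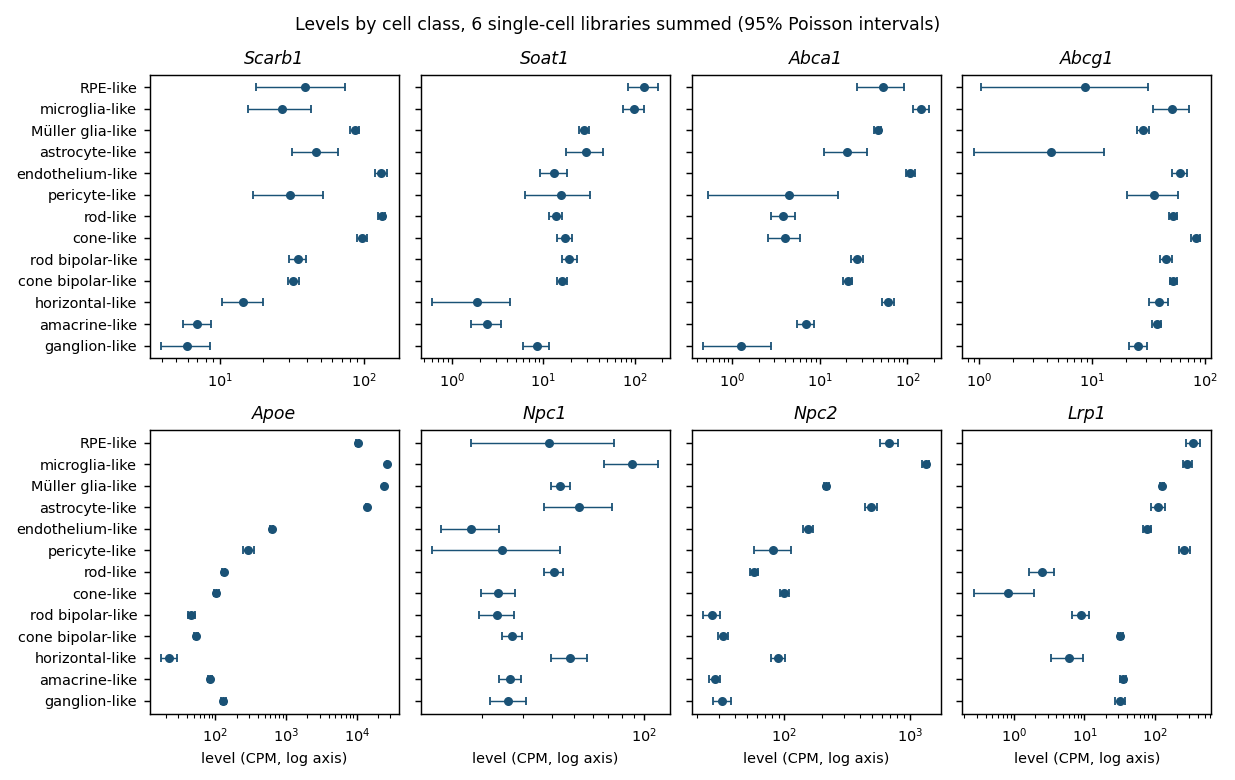
Level in CPM (horizontal log axis) of the 8 genes by cell class, with 95% Poisson intervals, from the 6 single-cell libraries summed. Scarb1 is highest in rod-like (133 CPM) and endothelium-like (132 CPM) cells, whereas Soat1 is highest in the 83 RPE-like cells of the finer clustering (125.4 CPM) and in microglia-like cells (96.6 CPM).

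To compare genotypes within a cell class, UMIs were summed per library and tested over the 3 ages with limma-trend on log2 CPM, with age in the model and 2 residual degrees of freedom. In rod-like cells 6.48% of 11631 genes passed, and Abcg1 was the only one of the 8 to do so. It was at 97.0, 104.9 and 53.2 CPM in WT rod-like cells at P19, P25 and P30 and at 48.2, 40.8 and 19.9 CPM in KO rod-like cells at the same ages. It was lower in KO cells at each age, with no overlap of the counting intervals (log2 fold change -1.23, SE 0.16, adjusted p = 0.000291 by limma). Without P30, the libraries of 1 instrument gave -1.20 (adjusted p = 8.4e-05). The rod-like cells of the genotypes lay mostly in different clusters, KO cells of P19 and P25 in cluster 0 and of P30 in cluster 1, and WT cells in clusters 2 and 5.

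Scarb1 in rod-like cells was at 169.8, 181.5 and 116.1 CPM in WT and at 116.3, 145.4 and 97.6 CPM in KO libraries at P19, P25 and P30. It was lower in KO cells at 3 of 3 ages but did not pass (log2 fold change -0.37, adjusted p = 0.124 by limma), whereas without P30 it did (-0.46, adjusted p = 0.0329). Abca1 was at most 11.4 CPM in rod-like cells, with a log2 fold change of -1.42 that did not pass (adjusted p = 0.0582, and 0.0394 without the 5% of cells with the most UMIs). Apoe did not pass in rod-like cells (0.15, adjusted p = 0.758), and passed without P30 (0.59, adjusted p = 0.0211). Its levels there were between 53.8 and 264 CPM, against at least 21390 CPM in Müller glia-like cells. At P19, P25 and P30, the Müller glia markers in rod-like cells summed to 97.8, 124.0 and 366.3 CPM in WT libraries. In KO libraries they summed to 117.7, 122.6 and 89.1 CPM. The part of glial RNA in the Apoe values of rod-like cells was not tested.

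In Müller glia-like cells, where 0.978% of 12575 genes passed, 0 of the 8 genes did by limma and 0 by edgeR on the UMI counts, and 1, Lrp1, had an unadjusted p below 0.05 by limma, as did 1701 of all genes tested. By edgeR 7.15% of all genes passed. Apoe was at 26430, 23450 and 23710 CPM in WT and at 21390, 25310 and 27700 CPM in KO libraries at P19, P25 and P30, lower in KO cells at P19 and higher at the 2 later ages. The log2 fold change was 0.13 (SE 0.17, adjusted p = 0.767 by limma), beside 1.08 in the bulk retina. At P19, P25 and P30, the Müller glia markers in these cells summed to 20470, 20290 and 19830 CPM in WT libraries. In KO libraries they summed to 15870, 13120 and 10490 CPM. Rod markers in the same cells summed to 1002, 905 and 3945 CPM in WT and 820.5, 3122 and 2968 CPM in KO libraries. The part of these differences in the Apoe values was not tested. Abca1 had 0 UMIs in the 135 WT Müller glia-like cells at P30, with an interval up to 14.2 CPM. Nearly all Müller glia-like cells of P30 lay in cluster 18, led by the metallothionein gene Mt2, and most of P19 and P25 in cluster 4.

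Over all cells of a library, 0.883% of 18119 genes passed, and 0 of the 8 genes did by limma, while edgeR on the UMI counts passed 2 and 2 had an unadjusted p below 0.05 by limma. These were Apoe and Npc2. Over all genes 2.09% passed by edgeR, and 2553 had an unadjusted p below 0.05 by limma. Apoe was at 2392, 2096 and 1424 CPM in WT and 2960, 5474 and 2616 CPM in KO libraries, higher at 3 of 3 ages (log2 fold change 0.89, adjusted p = 0.133 by limma and 0.0499 by edgeR). Npc2 was at 66.8, 55.6 and 62.8 CPM in WT and 87.4, 96.7 and 77.5 CPM in KO libraries, also higher at 3 of 3 ages (log2 fold change 0.53, adjusted p = 0.0852 by limma and 0.0409 by edgeR). Müller glia-like cells made up 6.77%, 8.70% and 5.28% of the cells in WT and 9.43%, 10.5% and 4.50% in KO libraries at P19, P25 and P30, a higher share in KO at P19 and P25 and a lower one at P30. Microglia-like cells made up 0.313%, 0.16% and 0.156% in WT and 0.604%, 0.71% and 0.952% in KO libraries, and the part of these shares in the Apoe and Npc2 values was not tested.

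**Figure D5:**
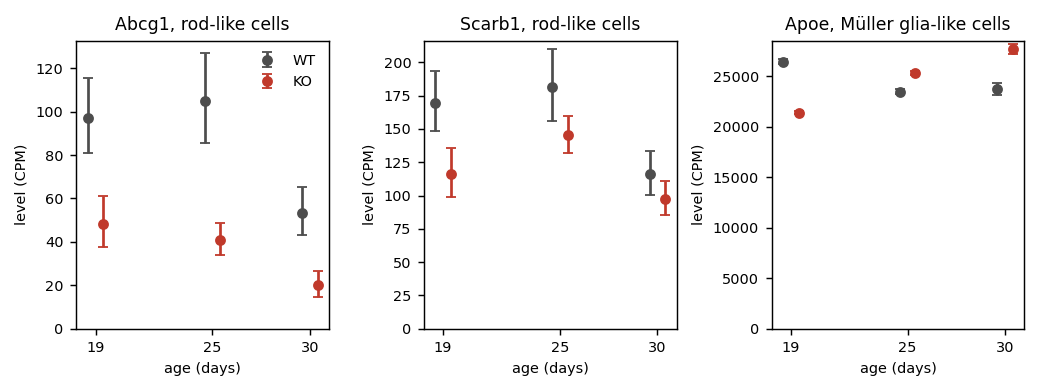
Level in CPM (vertical axis, from 0) by age in days for Abcg1 and Scarb1 in rod-like cells and Apoe in Müller glia-like cells, 1 library per genotype and age, with 95% Poisson intervals that cover counting error only. Abcg1 is lower in KO rod-like cells at each age (48.2 against 97.0 CPM at P19), and Apoe in Müller glia-like cells is lower in KO at P19 and higher at P25 and P30.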

How the data were processed

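The bulk tables hold raw read counts per gene, as the authors deposited them. The single-cell table holds natural log values, which the authors made from each cell's UMIs scaled to a total of 10000. The log had been taken 2 times, and undoing both steps returned whole UMIs for 100.0% of values (tolerance 0.01). Names in the submitters' processing notes are mm10, Cell Ranger 2.1, Seurat 3.2.2, edgeR 3.20.9, HOMER, FastQC and bcl2fastq, with no aligner or counter stated for the bulk reads. The genes and gene lists were chosen with earlier results of these data known.

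Symbols, positions and exon lengths came from GENCODE M21 (GRCm38), which held 53620 of 53801 identifiers. In R 4.3.3, counts passing filterByExpr were scaled by TMM and tested with edgeR 4.0.16 (quasi-likelihood, Benjamini-Hochberg adjusted p below 0.05); limma 3.58.1 and DESeq2 1.42.0 served as alternatives. Same-numbered KO and WT libraries deviated together in 4 of 4 pairs in each tissue (correlations between 0.326 and 0.701 in RPE and between 0.161 and 0.276 in retina). The numbers were taken as possible pairs, and a replicate block was fitted as an alternative. A WT library correlated best with the KO library of its own number in only 1 of 4 cases in RPE and 2 of 4 in retina. WT RPE replicate 1 correlated at 0.682 with KO replicate 4, and both were low in rod RNA, so pairing was not shown. Retina libraries correlated best with the RPE library of their own number in 3 of 4 cases in WT and 1 of 4 in KO. The main tests between tissues treated libraries as independent. None of 24 pairs of libraries matched within sampling noise.

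Cells were clustered in Python 3.11.15 (scikit-learn 1.9.0, leidenalg 0.10.2) on 30 principal components of 2000 variable genes, with 15 neighbours and a Leiden resolution of 1.0. No doublet caller was run, and classes were named from listed markers. UMIs summed per library were tested with limma-trend on log2 CPM (prior count of 2, at least 20 UMIs), and with edgeR on the recovered UMIs as an alternative. Test scripts were tested on simulated data. Pathway genes are named if among the 6 largest rises or 6 largest falls past the threshold in a tissue, or the 6 smallest adjusted p of the interaction, except 1 that is not reported here. Other alternatives were another normalization or low-count filter, both tissues in 1 fit, a minimum fold of 1.5 and leaving out each library or age. The fit without WT RPE replicates 2 and 3 and the separate RPE-like cells were added after seeing the data.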

Additional observations from a re-analysis of the deposited data

Results flagged for a closer look

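Of 120 groups of 4 libraries examined, 5 held a library whose gap to the nearest other library was large for the range of its group, where chance gives about 1 in 20 groups. They were Abca1 in KO RPE replicate 1 (141.29 CPM), Insig1 in KO RPE replicate 3 (48.415 CPM), Plin3 in KO retina replicate 4 (12.898 CPM), Ppara in WT retina replicate 2 (15.148 CPM) and Stab2 in WT retina replicate 2 (4.3682 CPM).

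The KO effect differed between the RPE and the retina in 21 pathway genes by edgeR's interaction test. For 5 of those with the smallest adjusted p, the effect in the RPE minus that in the retina, on the log2 scale, was -1.64 for Insig1, -0.98 for Srebf2, -1.2 for Srebf1, 0.97 for Mylip and -1.45 for Tspo. With both WT RPE libraries richest in rod RNA left out, these differences were -1.65, -0.95, -1.17, 0.84 and -1.6 in the same order, with adjusted p between 8.53e-05 and 0.00043.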

How the results depend on the processing

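Of 1055 alternative values for single genes, 1011 were counted as unchanged, and none that had passed reversed. For bulk values this meant the same direction and side of the threshold, or a move of less than the spread between libraries. For single-cell values that had not passed, it meant only that they still did not pass, whatever their direction. Soat1 in Müller glia-like cells, for example, went from 0.21 to -0.17 on the log2 scale without P30. The number of the 8 genes past the threshold in retina was 6, 3 with both tissues in 1 fit, whose spread is set by all libraries, and 2 with a minimum fold of 1.5. In that shared fit the adjusted p was 0.115 for Soat1, 0.0856 for Abcg1, 0.182 for Npc2 and 0.661 for Abcg4. Leaving out single retina libraries gave 6 each time. In rod-like cells the number was 1, 2 without the 5% of cells with the most UMIs, and between 1 and 3 when an age was left out. Over all cells it was 0, 2 by edgeR on recovered UMIs, and between 0 and 2 when an age was left out, 2 without P19. The other pathway genes past the threshold in RPE numbered 15, 26 by DESeq2, 25 with both tissues in 1 fit and between 6 and 16 when a library was left out; in retina they numbered 37, 24 with both tissues in 1 fit and 12 with a minimum fold of 1.5. Over all genes, the RPE calls numbered 1278, 2701 by DESeq2, 2863 with both tissues in 1 fit and between 645 and 2130 when a library was left out. The causes were not tested. The replicate block changed no call of a named gene but that of Clu (adjusted p = 0.0541). At a resolution of 2.0, Soat1 and Lrp1 were highest in RPE-like cells, and without the 5% of cells with the most UMIs Apoe was highest in Müller glia-like and Lrp1 in pericyte-like cells. Nothing states that the libraries of a group came from separate litters, and the single-cell tests rest on 1 library per genotype and age.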
